A study of Mus musculus with 3 samples.

Results

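The small leucine-rich proteoglycans are a family of secreted matrix proteins, and their transcripts were read here in wounded primary fibroblasts of the C57BL/6 mouse. The family was taken as 10 genes chosen by name, Dcn, Bgn, Lum, Fmod, Prelp, Omd, Ogn, Kera, Aspn and Epyc, and all 10 were found among the 43472 rows of the expression table. The cells were isolated from tail tips with collagenase, grown as a monolayer and scratched to make an in vitro wound. All 3 libraries came from cells that had received the soluble micrograft (MG, the cell-free fraction of minced mouse skin) and the MEK inhibitor PD0325901, which blocks the kinase above ERK, for 5 h. The labels number them as replicates 1, 2 and 3 of the MG + PD0325901 condition. No untreated or MG-only library was analysed here. An effect of the MG or of the inhibitor was therefore not computed, and each value below is a level in treated cells or a difference between replicates.

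Each of these proteins has a core of leucine-rich repeats, and several of them lie along collagen fibrils and set their diameter and spacing. Decorin and biglycan carry chondroitin or dermatan sulfate chains and bind TGF-β, while fibromodulin, lumican, keratocan and osteomodulin can carry keratan sulfate. The genes are sorted by sequence into class I (Dcn, Bgn, Aspn), class II (Fmod, Lum, Prelp, Kera, Omd) and class III (Ogn, Epyc). In skin, decorin and lumican are familiar products of dermal fibroblasts, and fibromodulin is typical of tendon and cartilage.

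Values are normalized counts, which are the read counts of a library divided by its size factor. The libraries held 22540518, 27037783 and 17244505 reads on genes in replicates 1, 2 and 3, and a count of 0 reads allows up to 3 reads, or 2.61, 2.11 and 3.56 normalized counts. These limits cover counting error only. Replicate 2 stood apart from the others. Of 13154 genes with a mean of at least 10 normalized counts, 670 were more than 2-fold lower and 702 more than 2-fold higher in replicate 2 than in both other libraries, against 280 and 327 for replicate 1 and 332 and 172 for replicate 3. All 8 fibroblast markers were detected in every library, but Thy1 among them had 2031, 15760 and 1652 normalized counts, highest in replicate 2. None of the 4 keratinocyte or 3 endothelial markers reached 10 normalized counts in any library. Of the 4 leukocyte markers, Laptm5 and Tyrobp passed this level in replicate 3, with 36.7 and 15.4.

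Biglycan was the most abundant family member in every library, and PRELP was next. Of the 10 genes, 8 had at least 10 normalized counts in each library and are called detected, against 60.1% of the 20322 genes with reads. Kera and Epyc were not detected. Because longer transcripts collect more reads, levels were compared between genes as normalized counts per kb of exon. Bgn had 8844, 14836 and 12899 per kb in replicates 1, 2 and 3. That averaged 12193 ± 3058 (SD, n = 3) and placed it at rank 50 of the 18890 genes with reads and a matched length. Prelp had 5814, 3266 and 9386 per kb, and its range overlapped that of Bgn although Bgn was higher in 3 of 3 libraries. The overlap and the rank of 50 both rest on the joined length of all annotated exons. With the longest transcript as the length, Bgn had 20231, 33941 and 29510 per kb and Prelp was unchanged, so their ranges did not overlap. Fmod followed by the mean, with 2035 ± 1567 per kb (SD, n = 3). Prelp exceeded it with no overlap of their ranges.

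Lum, Ogn and Dcn held the middle of the order and could not be ranked. Their means were 889 ± 1041, 573 ± 330 and 516 ± 192 normalized counts per kb (SD, n = 3), and their ranges overlapped. The range of Fmod, 230 to 3047 per kb, overlapped those of all 3. Fmod was above Lum and Ogn in each library, but only just above Ogn in replicate 2, at 230 against 227 per kb. Its place above Dcn rests on the mean. In replicate 2 Dcn exceeded Fmod, with 295 against 230 per kb. The mean of Lum rested on replicate 1, since in normalized counts it was 2175 with all libraries and 726 without that one. Dcn had rank 6 in the family in replicate 1, rank 3 in replicate 2 and rank 4 in replicate 3. Lum had rank 4 in replicate 1 and rank 6 in the other libraries. A wide gap followed. Dcn was 19.0-fold above Aspn, which had 27.1 ± 10.3 per kb, and Aspn was 2.48-fold above Omd, which had 11.0 ± 2.55 per kb (SD, n = 3), without overlap in either case. The plot of levels per kb shows the 3 libraries with the genes in the order of their means, which single libraries did not all follow.

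**Figure D1:**
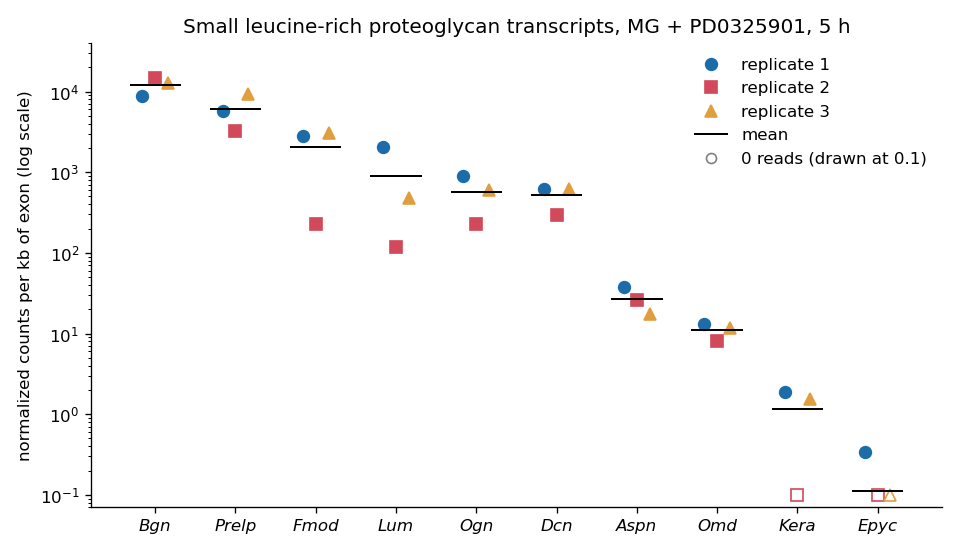
Normalized counts per kb of exon (log scale) of the 10 small leucine-rich proteoglycan genes in the 3 MG + PD0325901 libraries, ordered by the mean (black line). Filled symbols are libraries with reads and open symbols libraries with 0 reads, drawn at 0.1. Bgn lies above Prelp in each library, replicate 2 lies lowest for 6 of the 8 detected genes, and Kera and Epyc lie below 2 per kb.

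The make-up of the family differed more between the libraries than its sum did. Summed over the 10 genes, the level was 21122, 19007 and 27072 normalized counts per kb in replicates 1, 2 and 3. Biglycan made up 41.9% of this sum in replicate 1, 78.1% in replicate 2 and 47.6% in replicate 3. Without Bgn, the other 9 genes summed to 12278, 4171 and 14173 per kb, so that replicate 2 was 2.94-fold below the nearer library. By class, the class I sum was highest in replicate 2, at 15157 against 9509 and 13544 per kb, and the class II sum was lowest there, at 3623 against 10728 and 12922. The exon length of Bgn joins several annotated transcripts. With the longest transcript of each gene as its length, the Bgn share became 61.6%, 88.9% and 67.0%, still highest in replicate 2.

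**Figure D2:**
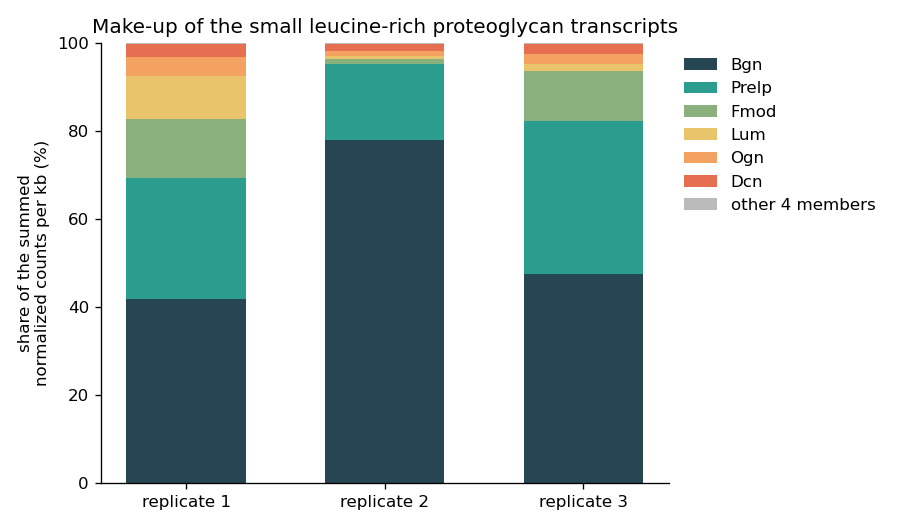
Share of each gene in the summed normalized counts per kb of the 10 genes, as stacked bars for replicates 1, 2 and 3 (percent, from 0 to 100). Bgn fills 78.1% of the bar in replicate 2 and under 50% in the other libraries, where Prelp and Fmod are wider.

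The class I gene Bgn encodes biglycan, which carries glycosaminoglycan chains and can signal through Toll-like receptors when it is released from the matrix. For Bgn, replicates 1, 2 and 3 held 53937, 90486 and 78672 normalized counts, or 74365 ± 18651 on average (SD, n = 3). It was highest in replicate 2, 1.15-fold above replicate 3. Dcn encodes decorin, which binds type I collagen and holds TGF-β in the matrix. For it the libraries held 3661, 1723 and 3659 normalized counts, or 3014 ± 1118 on average (SD, n = 3). Replicates 1 and 3 were nearly level for Dcn, and replicate 2 was 2.12-fold below the nearer of them. Aspn encodes asporin, named for a run of aspartates near its start, which also binds TGF-β. It had 89.4, 60.6 and 41.5 normalized counts, from 103, 86 and 35 reads, and replicate 2 lay between the others.

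Fmod and Lum, both of class II, varied most. Fmod encodes fibromodulin, which binds collagen and takes part in fibril assembly in tendon. It had 9346, 762 and 10075 normalized counts in replicates 1, 2 and 3, from 10763, 1081 and 8500 reads. Replicates 1 and 3 lay close together, and replicate 2 was 12.3-fold below the nearer. Lum encodes lumican, a keratan sulfate proteoglycan of cornea and dermis. It had 5073, 289 and 1164 normalized counts, so that all 3 libraries were far apart. Replicate 2 was 4.03-fold below replicate 3, which was in turn 4.36-fold below replicate 1.

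The other class II genes spanned a wide range of levels. Prelp encodes a protein with a proline- and arginine-rich end that binds heparan sulfate and anchors basement membranes to connective tissue. It had 21016, 11808 and 33932 normalized counts, and replicate 2 was 1.78-fold below replicate 1, the nearer. Omd, the gene of the bone protein osteomodulin, had 29.5, 18.3 and 26.1 normalized counts from 34, 26 and 22 reads. Kera, the gene of the corneal protein keratocan, had 4.34, 0 and 3.56 normalized counts. Its reads were 5, 0 and 3, with exact 95% Poisson intervals of 1.62 to 11.7 reads for replicate 1 and 0.619 to 8.77 for replicate 3, both of which reach below the 3 reads that the 0 of replicate 2 allows.

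In class III, Ogn encodes osteoglycin (mimecan), a small proteoglycan of bone and connective tissue. It had 2271, 583 and 1555 normalized counts in replicates 1, 2 and 3. Replicate 2 was 2.67-fold below the nearer library, and replicate 1 was 1.46-fold above replicate 3. Epyc, the gene of epiphycan, a growth cartilage proteoglycan, had 1 read in replicate 1 and 0 reads in the others, at or under the limit of detection in each library.

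Replicates were compared for every gene by a two-sided exact binomial test on reads with Benjamini-Hochberg adjustment at 0.05. Such a test compares libraries, not conditions, and covers counting error only, so a call says nothing of how much separate cultures vary. Of the 8 detected members, 7 differed between replicates 1 and 2 (69.3% of 14771 genes tested), 7 between replicates 2 and 3 (63.2% of 14344) and 5 between replicates 1 and 3 (52.8% of 14316). When a difference of more than 2-fold was also required, these counts became 4 (20.6% of genes), 4 (17.1%) and 2 (9.7%). The 4 genes between replicates 1 and 2 were Dcn, Lum, Fmod and Ogn, each lower in replicate 2, and those between replicates 2 and 3 were Lum, Fmod, Prelp and Ogn, again each lower in replicate 2. Between replicates 1 and 3 they were Lum and Aspn, both higher in replicate 1.

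Omd did not pass the exact test in any pair, with adjusted p-values of 0.123, 0.681 and 0.451 for replicates 1 and 2, 1 and 3, and 2 and 3, and it had 22 to 34 reads in a library. Dcn missed the threshold between replicates 1 and 3, with an adjusted p of 0.110 in the exact test. Fmod had an adjusted p of 0.0538 for the same pair by the exact test, and of 1.08e-06 when the deposited size factors gave the expected ratio. For Aspn the exact test gave an adjusted p of 0.0404 between replicates 2 and 3, and 0.0907 with the deposited size factors. Kera and Epyc had too few reads to be tested. Without the minimum of 10 reads in a pair, the exact test gave Kera an adjusted p of 0.0380 between replicates 1 and 2. Kera was not called in the other pairs.

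The lowest library was replicate 2 in 6 of the 8 detected members, and in 37.3% of the 12204 detected genes of the whole table. Only Bgn and Aspn were exceptions. In 4 members (Dcn, Lum, Fmod and Ogn) replicate 2 was more than 2-fold below both others, against 5.09% of genes whose mean reached 10. In 0 members was it more than 2-fold above both (5.34% of these genes). With the libraries scaled to equal totals Dcn left this group, at 1.98-fold. The median log2 difference of replicate 2 from the mean of the others was -1.13 over the detected members and 0.03 over all detected genes. Replicate 1 was more than 2-fold from both others for 1 member, Lum, where it was above them (2.49% of genes above and 2.13% below). Replicate 3 was so for 0 members (1.31% of genes above and 2.52% below).

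**Figure D3:**
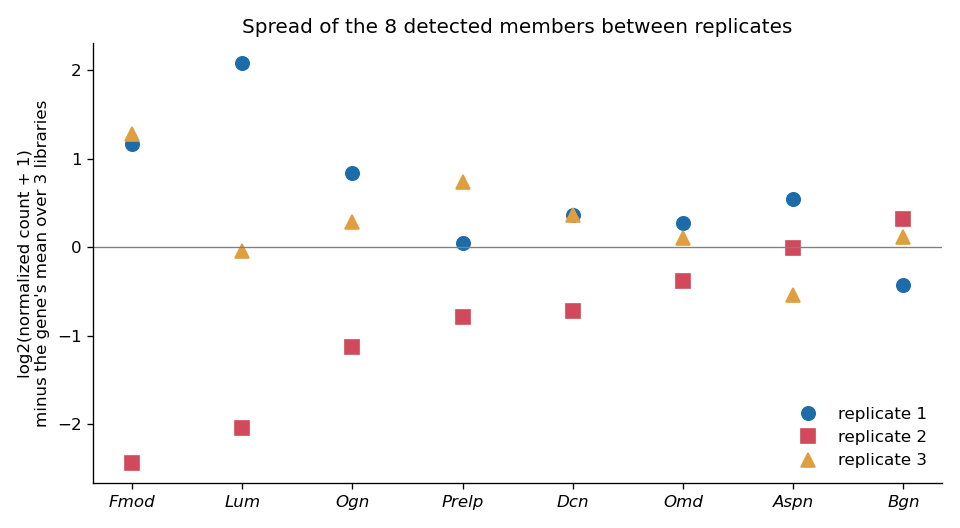
Deviation of each of the 3 libraries from the gene's own mean, in log2(normalized count + 1), for the 8 detected members, ordered by replicate 2. Replicate 2 (squares) lies 2.45 below the mean for Fmod and 2.05 below for Lum, near 0 for Aspn and 0.32 above for Bgn.

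The spread between replicates was wider for most members than for the typical gene. Of the 8 detected members, 6 spanned more than 2-fold from the lowest to the highest library, against 22.0% of the 12204 detected genes. The ratio was 17.6 for Lum, 13.2 for Fmod, 3.90 for Ogn, 2.87 for Prelp, 2.16 for Aspn and 2.13 for Dcn, and it was 1.68 for Bgn and 1.61 for Omd. Without replicate 2, 2 of the 8 kept a more than 2-fold range, Lum with 4.36 and Aspn with 2.16. On the log2(normalized count + 1) scale the SD had a median of 0.69 over the detected members, or 0.39 without replicate 2, and of 0.30 over all detected genes in the 3 libraries. Neither the share of genes with a more than 2-fold range nor the median SD was computed over all genes without replicate 2. The member values without it therefore have no such value beside them. The SD was 2.12 for Fmod and 2.07 for Lum, larger than in 99.7% of detected genes in each case. That of Bgn was 0.39, larger than in 64.6%. Counting error is a small part of these values, being at most 4.94% in the library with the fewest reads for the 6 more abundant members, and reaching 21.3% for Omd and 16.9% for Aspn.

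**Figure D4:**
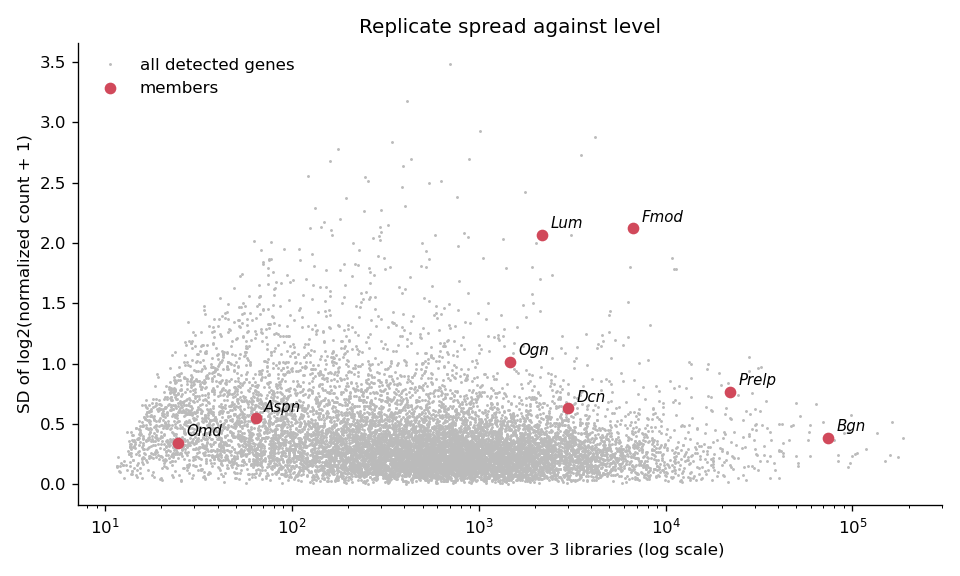
SD of log2(normalized count + 1) over the 3 libraries against the mean normalized counts (log scale) for the 12204 detected genes (grey) and the 8 detected members (red, named). Fmod at 2.12 and Lum at 2.07 lie near the top of the cloud, and Bgn at 0.39 and Omd at 0.34 lie within it.

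Markers of cartilage and tendon, which the tail tip holds and which make several of these proteoglycans, also differed between the libraries. The 6 cartilage markers summed to 11724, 390 and 998 normalized counts in replicates 1, 2 and 3, most of it from the cartilage collagen gene Col2a1, with 11538, 229 and 833. For Col2a1 and the sum, the order of the libraries was that of Lum. It was not so for Sox9, the other detected cartilage marker and a transcription factor of chondrocytes, with 171, 149 and 117, or for Acan, which encodes the main cartilage proteoglycan, with 4.34, 0 and 36.7. Matn3, also on the cartilage list, had 7.82, 12.7 and 5.93 normalized counts from 9, 18 and 5 reads, highest in replicate 2. Col9a1 and Cnmd had at most 4 reads in a library. The 4 tendon markers summed to 4691, 3260 and 2126. Scx, a tendon transcription factor, had 2470, 168 and 1381 normalized counts, and Mkx had 139, 47.9 and 169, both lowest in replicate 2. The mature tendon marker Tnmd had 124, 127 and 107, and Thbs4 had 1957, 2916 and 469, highest in replicate 2. Of the 5 bone markers, Runx2 alone was detected, with 596, 444 and 411, and Sp7 was at 0 reads in every library. Ibsp had 6.95, 17.6 and 7.11 normalized counts from 8, 25 and 6 reads, highest in replicate 2. Bglap and Dmp1 had at most 2 reads in a library. Of the 5 skeletal muscle markers 2 were detected and both were highest in replicate 2, Acta1 with 2429, 7286 and 5586 and Des with 212, 1208 and 77.0 normalized counts, while Myod1 was at 0 reads. Fewer cells of a type and less RNA per cell cannot be told apart in bulk samples. The part of these cell types in the Fmod and Lum differences was not tested.

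The family lies in 3 gene clusters and 1 lone gene (GENCODE M21, GRCm38), and the levels of neighbours were close in some cases and far apart in others. On chromosome 10 the members Dcn (97479609 to 97518143), Lum (97565128 to 97572703), Kera (97606879 to 97613692) and Epyc (97644068 to 97682454) are the only protein-coding genes within 203 kb, all on the plus strand. Dcn and Lum were detected with overlapping ranges, while Kera and Epyc, 34.2 kb and further beyond Lum, had at most 5 reads in any library. On chromosome 13 Aspn (49544443 to 49567565), Omd (49582462 to 49592822) and Ogn (49608046 to 49624501) lie within 80.1 kb. Ogn there exceeded Omd in each library, with 885 against 13.1, 227 against 8.15 and 606 against 11.6 normalized counts per kb. On chromosome 1 Prelp (133910304 to 133921414, minus strand) and Fmod (134037254 to 134048277, plus strand) are 116 kb apart. Bgn lies alone on chromosome X (73483602 to 73495933).

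Reads of overlapping genes could be assigned differently, since the sources do not say whether counting used the strand. Prelp shares 350 of its 3615 exon bases with the antisense gene Gm15851, which had at most 1.19 normalized counts. Epyc shares 1041 of 2561 exon bases with Gm10754, which had 0 reads in each library. Omd, Ogn and Aspn lie inside Cenpp on the other strand, and of these Aspn shares 7 exon bases with it.

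Promoter sequences are shown for Bgn, the member highest in replicate 2, and for Prelp, Fmod and Ogn, which were among the members lowest there. Each is the 250 bases before the RefSeq start (GRCm38.p6), 5′ to 3′ on the strand of the gene, at chrX:73483351-73483600 (plus) for Bgn, chr1:133921402-133921651 (minus) for Prelp, chr1:134037004-134037253 (plus) for Fmod and chr13:49607765-49608014 (plus) for Ogn. The 40 bases checked downstream of the RefSeq start were in a GENCODE transcript for Bgn, Prelp and Fmod, but not for Ogn. The Ogn window and its motif distances therefore follow the RefSeq start only. Capitals mark matches on either strand to the GC box GGGCGG or the TATA box TATAAA.
Bgn: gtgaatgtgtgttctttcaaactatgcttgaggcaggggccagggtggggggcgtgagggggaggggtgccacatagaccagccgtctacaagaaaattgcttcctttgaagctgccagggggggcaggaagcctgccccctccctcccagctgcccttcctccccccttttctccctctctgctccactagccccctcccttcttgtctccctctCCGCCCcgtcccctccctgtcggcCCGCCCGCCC
Prelp: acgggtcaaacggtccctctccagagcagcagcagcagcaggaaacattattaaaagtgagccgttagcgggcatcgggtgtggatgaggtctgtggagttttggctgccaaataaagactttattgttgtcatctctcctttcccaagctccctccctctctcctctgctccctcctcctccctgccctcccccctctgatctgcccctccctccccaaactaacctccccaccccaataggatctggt
Fmod: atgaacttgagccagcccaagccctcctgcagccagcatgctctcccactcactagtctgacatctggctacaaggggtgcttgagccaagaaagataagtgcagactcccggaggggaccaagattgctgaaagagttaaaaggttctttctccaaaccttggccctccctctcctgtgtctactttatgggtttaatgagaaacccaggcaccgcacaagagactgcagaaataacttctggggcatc
Ogn: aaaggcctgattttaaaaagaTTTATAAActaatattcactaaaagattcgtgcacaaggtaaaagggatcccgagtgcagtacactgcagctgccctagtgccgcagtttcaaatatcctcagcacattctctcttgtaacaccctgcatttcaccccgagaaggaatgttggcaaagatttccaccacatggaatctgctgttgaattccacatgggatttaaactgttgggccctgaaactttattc

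RefSeq windows of this length were at hand for 8 of the 10 genes, all but Dcn and Lum. The AP-1 motif TGANTCA, searched on both strands because the study is concerned with AP-1 transcription factors, was in 0 of the 9 windows of these 8 genes, and in 6.75% of the 32851 windows of all genes. The GC box was in 1 member, Bgn, with matches that begin 34, 10 and 6 bases before the start and of which the last 2 overlap, and in 32.7% of all windows. The TATA box letters were in Ogn and Aspn, far from the start, with overlapping matches on the strands of Ogn that begin 229 and 227 bases before it, and in 12.4% of all windows. The letters CCAAT were in 3 members (Prelp, Kera and Aspn) and in 33.8% of all windows, and the E-box CAGCTG was in Bgn and Ogn and in 4271 of all 32851 windows. Neither is in capitals above. The GC content of the window was 64.4% for Bgn, 55.6% for Prelp, 51.2% for Fmod and 42.0% for Ogn, against a median of 52.4%. It was lowest for Aspn, with 30.0%. Omd, also lowest in replicate 2, had 38.4% and no match to these motifs, and its window is not printed. A match is only a match of letters, and its absence says only that these letters are not in this window. A relation of these letters to the replicate differences was not tested.

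The genes whose profile over the 3 libraries was nearest to a member were found by the distance between log2 deviations, over 9990 genes whose mean reached 100 normalized counts. For Dcn they were Trappc2l, Habp4, Izumo4, Tysnd1 and Rpl41, at distances of 0.035 to 0.047. For Lum, the detected member with the widest range, they were Mest, F5, Syn3, Scand1 and Fndc1, at distances of 0.21 to 0.57. Mest had 514, 33.8 and 141 normalized counts. With 3 libraries many genes share a profile by their order alone, and nothing is read from these names. Among the members themselves, Dcn and Omd were nearest, at 0.44, and Bgn and Lum farthest, at 3.45. Omd had only 22 to 34 reads in a library, and the next pair, Dcn and Prelp, lay at 0.49.

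Other leucine-rich proteoglycans and the genes that build or bind these proteins were read from fixed lists. For the counts below, 22.0% of all detected genes had a more than 2-fold range. Of 8 other small leucine-rich proteoglycan genes, 5 were detected and 1 had a more than 2-fold range. Tsku, a TGF-β and Wnt regulator, was the highest, with 999, 827 and 1408 normalized counts per kb. Ecm2 was the lowest detected, with 5.81, 2.98 and 5.22 per kb. Podnl1 had the widest range, with 110, 235 and 39.1 normalized counts. Chad, the gene of the cartilage protein chondroadherin, had 0 reads.

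The enzymes of the chondroitin and dermatan sulfate chains were mostly detected. Of 22 genes, 20 were detected and 4 had a more than 2-fold range. Their log2 SD had a median of 0.28, near the 0.30 of all detected genes, against 0.69 for the members. The highest per length was the chondroitin 4-sulfotransferase gene Chst12, with 1454, 1635 and 1523 normalized counts per kb, and the lowest detected was the 6-sulfotransferase gene Chst3, with 3.34, 1.84 and 7.66. Xylt1, a xylosyltransferase that starts the chain, had the widest range, with 14.8, 47.2 and 94.8 normalized counts. Its paralog Xylt2 had 489, 326 and 522. Replicate 2 was the lowest library for 12 of these 20 genes, and for 37.3% of all detected genes.

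Of 7 genes for keratan sulfate synthesis and tyrosine sulfation, 5 were detected and 3 had a more than 2-fold range. Tpst2, which sulfates tyrosines of secreted proteins, was the highest per length, with 619, 515 and 637 normalized counts per kb, and B4galt4 was the lowest detected, with 29.5, 15.6 and 39.1. Chst1, a keratan sulfate sulfotransferase gene, had the widest range, with 69.5, 299 and 73.5 normalized counts, highest in replicate 2. Of 3 proteases for propeptide removal, 2 were detected, each with a more than 2-fold range. Bmp1, which trims probiglycan, had 518, 1105 and 565 normalized counts per kb, and its relative Tll1 had 6.72, 17.4 and 1.68. Both were highest in replicate 2, and the share of all genes highest there was not computed.

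Ligands and receptors that bind decorin or biglycan were detected in 10 of 11 cases, and 2 had a more than 2-fold range. Tgfb3 was the highest per length, with 2653, 1355 and 1730 normalized counts per kb, and Met, which decorin binds, was the lowest detected, with 30.4, 17.1 and 29.6. Tlr2, a receptor of soluble biglycan, had 2714, 979 and 4575 normalized counts and was lowest in replicate 2. P2rx7, which takes part in biglycan signaling, had the widest range, with 171, 460 and 59.3, and was highest there. Kdr had at most 5 reads. The median log2 difference of replicate 2 from the mean of the others was -0.40 over the detected genes of this list and -1.13 over the members.

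**Figure D5:**
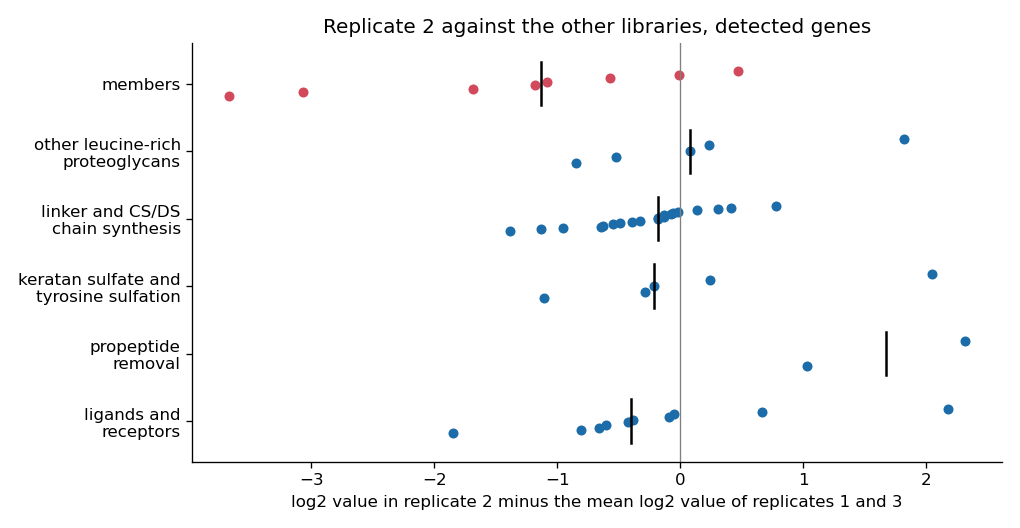
Log2(normalized count + 1) in replicate 2 minus the mean of replicates 1 and 3 for the detected genes of each list (points) with the list median (black bar), where CS/DS stands for chondroitin or dermatan sulfate. The members have a median of -1.13 with Fmod at -3.67 and Bgn at 0.47, and the chain synthesis genes have a median of -0.18.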

How the data were processed

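RNA-seq was analysed from 3 libraries of 1 condition. Per the labels and the methods, the authors filtered adapters, aligned 50 bp single-end reads of stranded mRNA libraries to mm10 with TopHat2 2.0.13, with up to 2 mismatches, and retained uniquely placed reads whose score was 10 or higher. Genes were counted with HTSeq 0.5.3p3. The annotation, the strand setting and the libraries behind the size factors are not given in the sources used here. The signal deposited by the authors consists of gene counts that DESeq divided by 1 size factor per library. In each library 100% of the values came within 0.01 reads of a whole multiple of the smallest value, so reads were recovered by division, giving size factors of 1.15, 1.42 and 0.844. A further 3 columns of per-sample values could not be assigned to a sample and were not used.

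Means, SDs and ratios used normalized counts, and log2 values were taken after adding 1. Detection meant at least 10 normalized counts in every library. Libraries were compared in pairs with the exact binomial test (two-sided) on the recovered reads of genes that had 10 or more reads in both libraries together, with the library totals as the expected ratio and Benjamini-Hochberg adjustment over all tested genes. Since the labels name replicates without a culture or donor, p-values measure only the difference between these libraries. Exon lengths and positions came from GENCODE M21, of the same build, matched by symbol for 93.0% of genes with reads. Cnmd was matched by its older name Lect1. Promoter windows came from RefSeq. TMM factors came from edgeR 4.0.16 in R 4.3.3, and Python 3.11.15 with numpy 2.4.6, scipy 1.17.1, pandas 2.3.3 and matplotlib 3.10.9 was used for the rest. The steps were tested on simulated data.

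The members, gene lists and markers were chosen with earlier results of these data known. Named were all members, the highest and lowest detected gene by level and the one with the widest range in each list, and the 5 nearest profiles of Dcn and of the member with the widest range. Acan, Sox9, Matn3, Col9a1, Cnmd, Thy1, Laptm5, Tyrobp, Acta1, Des, Myod1, Mkx, Tnmd, Thbs4, Sp7, Runx2, Ibsp, Bglap, Dmp1, Col2a1, Scx, Xylt2, Chad, Tlr2 and Kdr, which are on the lists or marker lists, were named after their values were seen. The alternatives were other detection limits, fold limits, pseudocounts, scalings, lengths and read minimums and each replicate left out. Those for the count of members more than 2-fold lower in replicate 2 than in both others, and for the sum per kb were added after the data were seen.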

Additional observations from a re-analysis of the deposited data

How the results depend on the processing

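No paired analysis was possible because there was 1 group and no other to pair it with. Requiring a more than 2-fold difference left, by construction, 4 members that differed between replicates 1 and 2, 2 members for the pair of 1 and 3, and 4 members for the pair of 2 and 3. The count of members with a more than 2-fold range ran from 2 to 5 when single replicates were left out, against 6 with all, and was 2 without replicate 2. The sum per kb became 38349 with the longest transcript as the length, against 22400, since the exon length of Bgn shrinks. The median SD of the detected members ran from 0.39 to 0.88 when single replicates were omitted, and was 0.39 without replicate 2. The Dcn ratio of replicate 3 to replicate 1, which was not called, turned from 0.957 to 1.00 (TMM) around equal levels. The mean of Lum was 726 normalized counts without replicate 1, against 2175. The mean levels of the 10 members moved by less than 1 SD in all 20 recomputations with another scaling. Without length division the ranks of Dcn, Lum and Ogn changed, with the longest transcript Dcn and Ogn changed places, and without replicate 1 Dcn and Lum did. Counting error was largest for Omd, Aspn, Kera and Epyc.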
